A study of Homo sapiens with 5 samples.

Results

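MDA-MB-231 cells that had spent 10 days at 1% O2 and were then returned to 20% O2 for 10 days were compared with cells harvested at the end of 10 days at 1% O2. The comparison is between 1 pair of libraries, reoxygenated minus 1% O2 day 10, and covers every gene with at least 5 CPM (read counts relative to library size, scaled by the trimmed mean of M values, TMM) in either library in the authors' deposited normalized table. That rule kept 11498 of 26475 gene rows, or 43.4%. MDA-MB-231 is a widely used cell line from a human breast tumor, classed as triple-negative (no estrogen or progesterone receptor and no amplified HER2). The labels give no treatment other than oxygen and no genetic change. Libraries were made with an mRNA kit from total RNA, 1 for each of 5 conditions: 20% O2 at day 1, 1% O2 at day 1, 20% O2 at day 10, 1% O2 at day 10, and reoxygenated. Values given for all 5 libraries follow this order. The reoxygenated cells had therefore been kept 10 days longer than either day 10 culture, and no control of that age at 20% O2 was analysed here, so time in culture and the return of oxygen cannot be told apart.

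With 1 library in each condition there was no replicate check and no test. Each difference is a log2 difference in TMM-scaled CPM and describes the libraries, not the conditions. The interval after a difference is an exact Clopper-Pearson 95% interval of the count ratio and covers counting error only. Genes are described as higher or lower where the log2 difference was at least 1 in size, which is 2-fold. Estimated counts summed to 9781980 in the 1% O2 day 10 library and 7719797 in the reoxygenated library, and to between 10764207 and 12544953 in the other 3. Before TMM scaling, 1 count thus stood for about 0.102 CPM and 0.130 CPM in the libraries compared. Markers of the line were checked: VIM (vimentin) was at 976 and 1125 CPM in the libraries compared, whereas ESR1 (estrogen receptor) had 2 and 1 counts and PGR (progesterone receptor) 4 and 3. ERBB2, which encodes HER2, was detected, at 42.5 and 52.9 CPM. Also detected were EPCAM, at 29.03 and 15.21 CPM, and GATA3, at 6.23 and 8.05 CPM, so these markers were not absent. CDH1 was under 5 CPM in both libraries. AXL, CD44 and MSN completed the check, and their lowest value was 428.7 CPM, for MSN after 10 days at 1% O2. Of 16 genes that mark fibroblasts, vessel walls, blood cells or liver, 14 were under 5 CPM in both libraries, and the summed level of all 16 was 32.7 CPM after 10 days at 1% O2, 18.9 CPM after reoxygenation and between 16.2 and 19.2 CPM in the other 3 libraries; their part in the results was not tested. As these are bulk samples, fewer cells of a kind and less RNA per cell cannot be told apart.

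Cells sense oxygen through prolyl hydroxylases of the EGLN family, which mark the alpha subunits of the hypoxia-inducible factors (HIF) for destruction by the VHL ubiquitin ligase when oxygen is present. In low oxygen the alpha subunits persist, pair with ARNT and switch on genes for glucose uptake, glycolysis, acid export, blood vessel growth and matrix remodelling. Oxidants and electrophiles act on a separate switch, the KEAP1 and CUL3 ligase complex, which otherwise removes the transcription factor NRF2 (gene NFE2L2). NRF2 switches on genes for glutathione and thioredoxin metabolism, quinone detoxification and iron storage, and BACH1 represses many of the same genes.

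After reoxygenation 606 genes were higher, 5.27% of those compared, and 832 were lower, 7.24%. The median log2 difference over all genes was 0.08, the quartiles were −0.33 and 0.46, and the outer percentiles (5 and 95) −1.20 and 1.02. Under this filter the lower side held the larger differences: 181 genes were lower by 4-fold or more against 22 higher by as much, and 55 against 4 at 8-fold. The 832 lower genes together made up 61266 CPM after 10 days at 1% O2 and 18792 CPM after reoxygenation, and the 606 higher genes 20462 and 49676 CPM. Of the genes kept, 578 reached 5 CPM only in the 1% O2 day 10 library and 257 only in the reoxygenated library. Such genes could enter only through the library in which they were higher, and they include 348 of the lower and 93 of the higher genes. With 5 CPM required in both libraries, 513 genes were higher and 484 lower. The counts at 4-fold and 8-fold were not recomputed in that setting. Among the 143 genes whose higher value was between 5 and 5.5 CPM, 16 were lower and 7 higher, and among the 184 left out just below, between 4.5 and 5 CPM, 44 were lower and 10 higher.

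**Figure D1:**
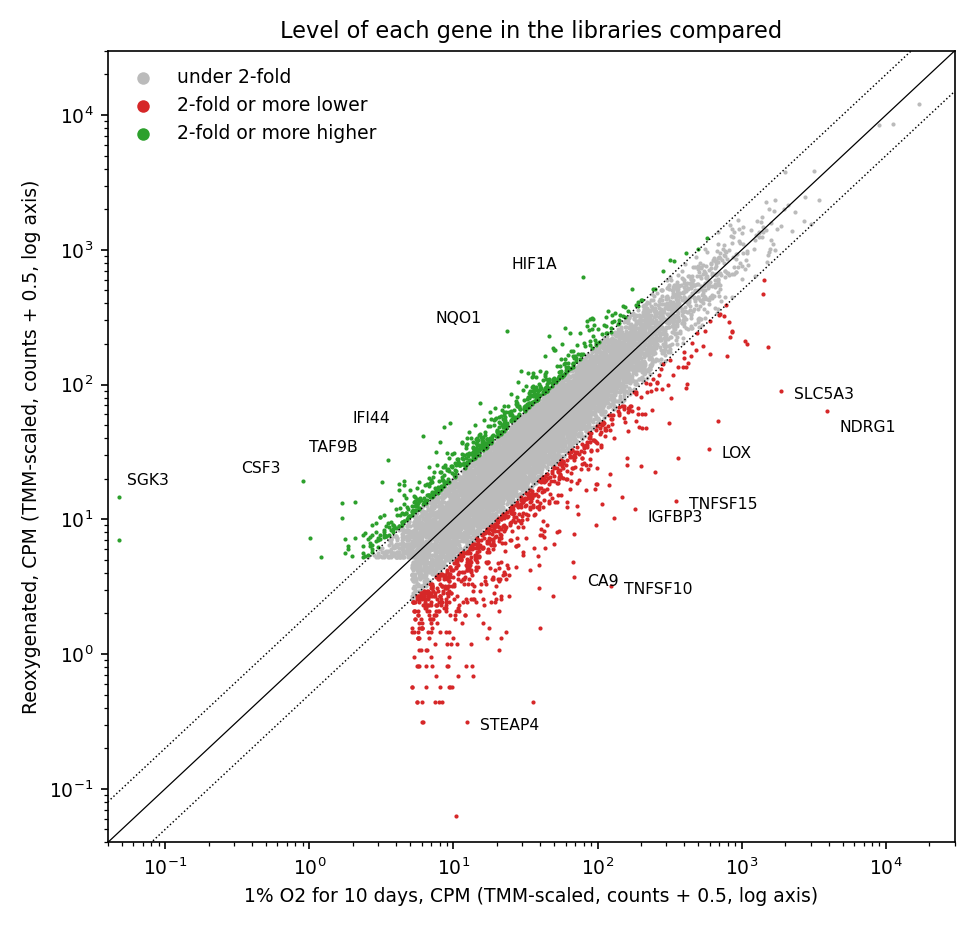
Each point is 1 of the 11498 genes, placed by its CPM after 10 days at 1% O2 (horizontal) and after reoxygenation (vertical), both on log axes after 0.5 was added to each count. The solid line marks equal levels and the dotted lines 2-fold. Red points, 832 genes, are 2-fold or more lower and reach farther from the line than the 606 green points that are 2-fold or more higher.

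The 3 lists with the most genes past 2-fold are targets of factors with known promoter elements, and the sequence just before the transcription start is shown for 2 genes of each. The 2 are those with the largest differences among members past 2-fold whose 150 bases hold a match. Every gene shown was therefore picked for holding one, and members with larger differences but no match were passed over. Some genes were left out of this choice and are not reported here. Most of the genes past 2-fold are in none of these lists. All sequences are from RefSeq (GRCh38.p14), are given 5′ to 3′ on the gene's own strand and cover the 150 bases before the start. Capitals mark the matches. The first pair are HIF target genes, lower after reoxygenation, and capitals mark the core of the hypoxia response element, ACGTG, read on either strand. CA9 lies on the plus strand (chr9:35673778-35673927) and LOX on the minus strand (chr5:122078260-122078409).
CA9: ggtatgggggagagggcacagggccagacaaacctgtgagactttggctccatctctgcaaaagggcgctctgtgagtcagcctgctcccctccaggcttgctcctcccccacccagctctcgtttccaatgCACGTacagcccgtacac
LOX: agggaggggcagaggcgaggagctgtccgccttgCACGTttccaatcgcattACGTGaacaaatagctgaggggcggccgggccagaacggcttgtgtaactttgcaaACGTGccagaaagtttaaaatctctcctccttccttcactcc
The second pair are interferon-stimulated genes, higher after reoxygenation, and capitals mark the interferon-stimulated response element, searched as GAAA, any 2 bases and GAAA again on either strand. IFI44 (chr1:78649639-78649788) and IFIT1 (chr10:89392473-89392622) are both on the plus strand.
IFI44: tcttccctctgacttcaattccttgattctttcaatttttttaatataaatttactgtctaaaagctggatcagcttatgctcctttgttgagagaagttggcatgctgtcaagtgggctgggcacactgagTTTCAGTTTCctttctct
IFIT1: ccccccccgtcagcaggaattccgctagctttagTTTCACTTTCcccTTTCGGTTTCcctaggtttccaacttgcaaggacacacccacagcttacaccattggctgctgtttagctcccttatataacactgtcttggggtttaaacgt
The third pair are genes of mitosis, also higher, and capitals mark the cell cycle genes homology region, searched as TTTGAA on either strand. PLK1 (chr16:23678739-23678888) and KIF11 (chr10:92592980-92593129) are on the plus strand.
PLK1: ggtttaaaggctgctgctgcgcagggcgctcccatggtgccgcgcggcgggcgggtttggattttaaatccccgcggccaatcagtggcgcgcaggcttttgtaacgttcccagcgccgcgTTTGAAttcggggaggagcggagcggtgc
KIF11: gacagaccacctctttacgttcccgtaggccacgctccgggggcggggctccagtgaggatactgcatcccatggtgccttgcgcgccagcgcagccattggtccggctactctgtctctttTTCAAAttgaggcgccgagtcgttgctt

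LOX holds 3 matches to the HIF core, beginning 116, 98 and 42 bases before the start, and CA9 holds 1, at 18 bases. IFIT1 carries a pair of response elements, at 116 and 103 bases, and IFI44 a single one at 18. The single match of PLK1 lies at 29 bases and that of KIF11, on the opposite strand, at 28. Over 250 bases before the start, ACGTG was found in 24 of 38 HIF targets with a promoter in the table (63.2%), in 24.2% of the 9362 compared genes that could be searched and in 18.7% of all 27305 promoters. The interferon element was found in 15 of 25 interferon-stimulated genes (60%), against 2.35% of the compared genes and 3.07% of all promoters. TTTGAA was found in 17 of 36 mitosis genes (47.2%), against 8.20% of the compared genes and 13.6% of all promoters. These lists are made of known targets, and a match is a run of letters, not a measured binding site. Over all genes lower by 2-fold or more, ACGTG was in 20.5%, below the 24.2% of all compared genes. Over all genes higher by 2-fold or more, the interferon element was in 4.4%, against 2.35% of all compared genes. TTTGAA was in 17.4% of the higher genes, against 8.20%. The listed genes are counted in these shares.

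Among the genes of oxygen sensing itself, HIF1A, which encodes the HIF-1 alpha subunit, was among the 12 highest of the whole comparison. HIF1A (chromosome 14, 61695513 to 61748258, GRCh38) had 396, 190, 467, 78.6 and 626 CPM in the 5 libraries. It was lowest after 10 days at 1% O2 and highest after reoxygenation. The log2 difference was 2.99 (2.89 to 3.10), or 7.95-fold, from 820 and 4980 counts. HIF1A-AS2, a noncoding RNA transcribed from the opposite strand across the end of HIF1A, went the other way, with 33, 50, 32, 254 and 21 counts and a log2 difference of −3.11 (−3.92 to −2.56). The strand setting of the counting is not given in the sources used here, so reads where the transcripts overlap cannot be assigned with certainty; with the counts of both rows added, the log2 difference was 2.61 (2.52 to 2.71). HIF-1 alpha protein, whose level is set mainly by its destruction, was not measured.

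The other oxygen-sensing genes differed less or in the opposite direction. EGLN3, a prolyl hydroxylase gene that is itself a HIF target, had 4.62, 14.5, 4.49, 67.7 and 4.78 CPM, with a log2 difference of −3.77 (−4.34 to −3.35). Its level after reoxygenation was close to that of both 20% O2 libraries. EPAS1, which encodes the HIF-2 alpha subunit, had 53.5, 50.9, 132, 293 and 166 CPM, a difference of −0.82 (−0.91 to −0.72), so it did not reach 2-fold and the reoxygenated value lay nearer to 20% O2 at day 10 than to day 1. EGLN1, the main prolyl hydroxylase, differed by −0.47 (−0.60 to −0.35). ARNT, ARNT2, the asparaginyl hydroxylase gene HIF1AN, EGLN2 and VHL lay between −0.29 and 0.06. In all, 1 of 9 compared members was higher (11.1%, background 5.27%) and 1 lower (11.1%, background 7.24%). HIF3A, the tenth, had 3 counts after 10 days at 1% O2 and 0 in the other libraries.

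HIF target genes outside glycolysis made the largest block of lower genes. Of 52 listed, 51 were compared, of which 38 were lower by 2-fold or more (background 7.24%) and 0 higher, and 50 of the 51 lay below 0, all but FAM162A, at 0.02, which falls below 0 when library totals are used. Their median was −1.44, against 0.08 for all genes. With 5 CPM required in both libraries, 30 of the listed genes were lower, where 484 of all 10663 genes kept were lower. NDRG1, a stress-induced gene of the N-myc downregulated family, had 64.3, 556, 82.7, 3875 and 63.4 CPM. Apart from 1 joined row, it was the lowest of all named genes, at −5.93 (−6.06 to −5.81) or 61.0-fold lower, and its reoxygenated level was that of 20% O2 at day 1. CA9, carbonic anhydrase 9 of the cell surface, had 5.10, 51.9, 8.48, 68.7 and 3.65 CPM and a difference of −4.17 (−4.82 to −3.70). The reoxygenated value was the lowest of the 5.

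LOX, lysyl oxidase, which crosslinks collagen, had 36.1, 125, 38.7, 589 and 32.9 CPM and a difference of −4.15 (−4.35 to −3.98). PDGFB, the B chain of platelet-derived growth factor, differed by −3.88 (−5.08 to −3.20) and ANGPTL4, an inhibitor of lipoprotein lipase, by −3.65 (−4.02 to −3.35). The MYC antagonist MXI1 differed by −3.04, the peptide hormone adrenomedullin (ADM) by −2.49, the chemokine receptor CXCR4 by −2.39 and the collagen prolyl hydroxylase P4HA1 by −2.03. Mitophagy receptors BNIP3L and BNIP3 were lower by less, −1.62 and −1.45.

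A few HIF targets stayed between the levels of 20% and 1% O2 at day 10. VEGFA, the vascular endothelial growth factor, had 90.2, 165, 78.2, 444 and 164 CPM, a difference of −1.44 (−1.53 to −1.35), while its reoxygenated value was 1.06 above 20% O2 at day 10 on the log2 scale. CCNG2, an atypical cyclin linked to arrest, had 14.4, 52.1, 13.1, 90.5 and 32.6 CPM, with values of −1.47 and 1.30 for the same differences. DDIT4, an inhibitor of mTORC1, had 36.8, 112, 46.4, 228 and 132 CPM; it was 0.79 lower than after 10 days at 1% O2, short of 2-fold, and 1.51 above 20% O2 at day 10. In these 3 genes the reoxygenated library held the intermediate level. They were chosen after their values were seen, as were ERRFI1, PTGS2, CYP1A1, CYP1B1, ALPP, EDN1 and the other genes named for where the reoxygenated library stood among the 5.

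Genes of glucose uptake, glycolysis and lactate export were lower to a smaller extent, 8 of 24 by 2-fold or more (background 7.24%) and 0 higher, with a median of −0.80. The glucose transporter gene SLC2A3 had 32.4, 74.6, 34.3, 686 and 53.6 CPM and a difference of −3.67 (−3.82 to −3.54). About 13.7% of its sequence words are shared with another gene. ALDOC, an aldolase, had 26.6, 117, 40.5, 160 and 25.3 CPM, or −2.65 (−2.88 to −2.45). PFKFB4 and PFKFB3, which set the level of the activator fructose 2,6-bisphosphate, differed by −1.90 and −1.22, the enolase ENO2 by −1.81 and the hexokinase HK2 by −1.54. The isoforms that carry the bulk of the flux in most cells differed less: PGK1 by −1.01, LDHA by −0.95, SLC2A1 by −0.93, PKM by −0.16 and GAPDH by 0.04. LDHA sat at the 2-fold line, which it passed when library totals were used. GAPDH is one of the few genes of the list above 0, and its sign turned to −0.01 when library totals replaced TMM.

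Outside these lists, the 12 lowest genes chosen by size included ligands of the tumor necrosis factor family. TNFSF10, which encodes the death ligand TRAIL, had 18, 37, 41, 1296 and 25 counts, a difference of −5.22 (−5.94 to −4.74), and TNFSF15, which encodes TL1A, had 31, 87, 162, 3662 and 108 counts, or −4.67 (−4.98 to −4.42). Both were high in 1 library alone, 1% O2 at day 10. The decoy receptors for TRAIL, TNFRSF10D and TNFRSF10C, were also lower, at −1.89 and −1.24, while the signalling receptors TNFRSF10B and TNFRSF10A differed by −0.34 and 0.32. In the list of death ligands, receptors and caspases, 5 of 14 genes were lower (background 7.24%) and 0 higher (median −0.14); the fifth was CASP14, with 140 and 6 counts.

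SLC5A3, a sodium-coupled transporter of the osmolyte inositol, had 72.6, 124, 65.2, 1873 and 89.9 CPM, a difference of −4.38 (−4.49 to −4.27). It lies within MRPS6, a mitochondrial ribosomal protein gene with 199 CPM after 10 days at 1% O2 and 24.6 after reoxygenation, and with both rows added the difference was −4.17 (−4.27 to −4.08). The taurine transporter gene SLC6A6, which handles another osmolyte, differed by −1.54. IGFBP3, a binding protein of insulin-like growth factors, had 25.3, 41.0, 20.1, 181 and 11.8 CPM and differed by −3.91 (−4.25 to −3.64). MAP3K7CL, at 417 and 12 counts, and the metalloreductase gene STEAP4, at 130 and 2, differed by −4.56 and −4.83. EPPK1 (epiplakin) had 141 and 5 counts, and CDH3 (P-cadherin) 86 and 3. CST1, a secreted cystatin, had 217 and 8 counts, a difference of −4.13, or −3.70 with the related row CST4 added.

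By difference in CPM among genes past 2-fold, NDRG1 and SLC5A3 were followed by ERRFI1, LIMCH1 and PLAT. ERRFI1, a feedback inhibitor of the EGF receptor, had 191, 453, 211, 1519 and 191 CPM and differed by −2.99 (−3.07 to −2.92). LIMCH1, an actin-associated protein, differed by −1.59 and PLAT, tissue plasminogen activator, by −2.43. Both were at their highest in the 1% O2 day 10 library and between 201 and 489 CPM in the other 4.

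**Figure D2:**
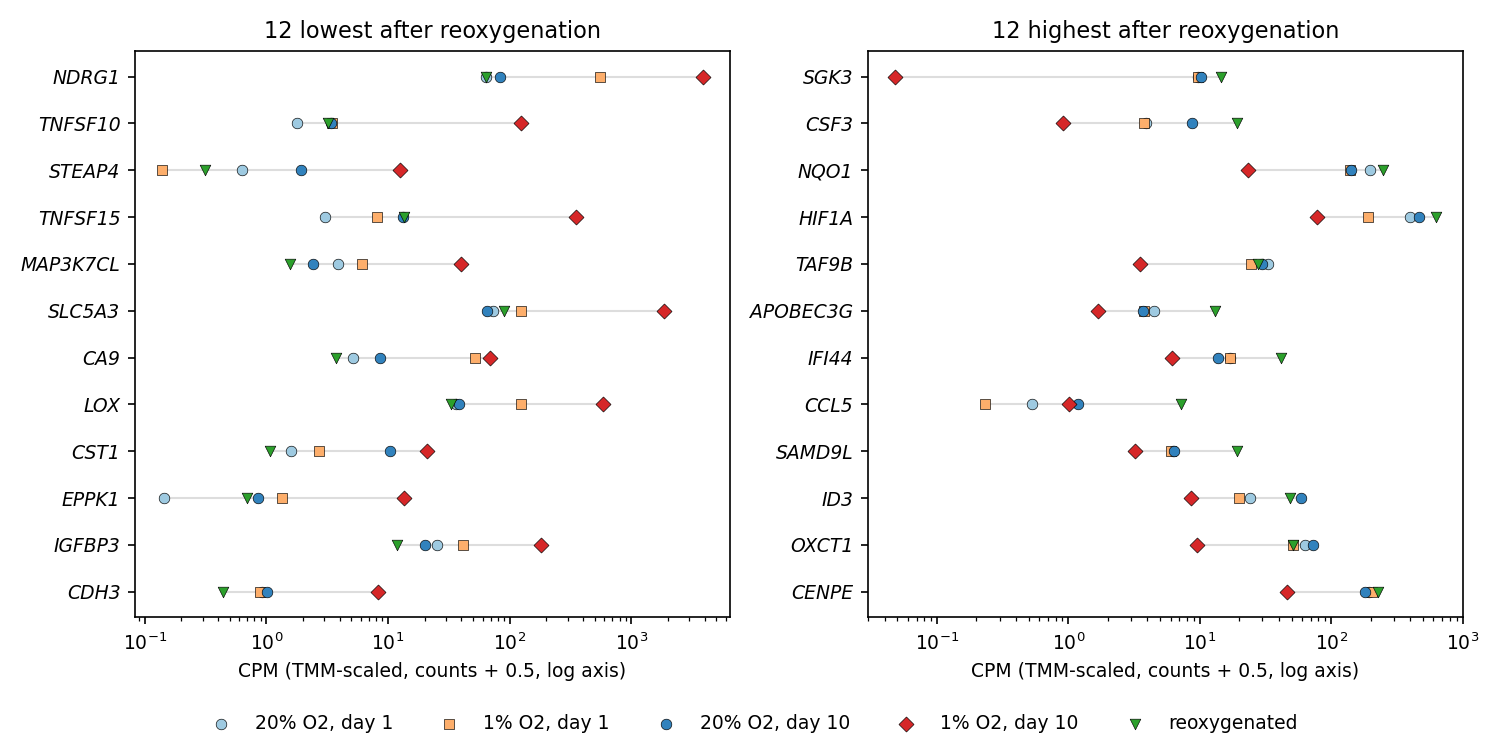
CPM in the 5 libraries of the 12 lowest and the 12 highest genes, left after uncertain rows, uncharacterized symbols and noncoding classes such as small and antisense RNA were set aside, on a log axis after 0.5 was added to each count, with 1 marker shape and colour for each library. For genes on the left the 1% O2 day 10 marker (red diamond) lies to the right of the other 4; on the right it lies to the left of the other 4, except for CCL5, where both day 1 libraries were lower.

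Among the highest genes, NQO1 had the clearest separation. NQO1 encodes a quinone reductase that is a standard reporter of NRF2 (chromosome 16, 69709401 to 69726560). It had 199, 140, 141, 23.4 and 250 CPM, a difference of 3.41 (3.23 to 3.62), or 10.6-fold. The 1% O2 day 10 library was far below the other 4 and the reoxygenated library above all of them. CSF3, the granulocyte colony-stimulating factor, had 40, 40, 107, 9 and 152 counts and differed by 4.19 (3.51 to 5.63). It rests on 9 counts in the 1% O2 library.

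SGK3, a kinase related to AKT, had 101, 104, 124, 0 and 115 counts. Measured against the floor of 3 counts it was at least 50.3-fold higher, but the joined row C8orf44-SGK3 covers the same gene, and with both added the counts were 48 and 146 and the difference 1.95 (1.52 to 2.50). TAF9B, a subunit of a general transcription complex, differed by 2.93, and by 1.13 when added to its near copy TAF9. OXCT1, the enzyme that lets cells burn ketone bodies, had 63.6, 51.1, 72.9, 9.48 and 51.4 CPM and differed by 2.42 (2.12 to 2.77). ID3, an inhibitor of basic helix-loop-helix factors, had 24.3, 19.8, 58.8, 8.53 and 48.4 CPM and differed by 2.48 (2.17 to 2.85), and its relative ID1 by 1.21. The reoxygenated library lay within the range of the 20% O2 libraries for ID3 and below both of them for OXCT1. By difference in CPM, the highest 5 genes past 2-fold were TOP2A, HIF1A, FTL, TXNRD1 and CSE1L.

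Rows that rest on the sharing of reads between near-identical genes were left out of these extremes. BLOC1S5-TXNDC5 and PHOSPHO2-KLHL23, joined transcripts, were at −5.97 and −5.78, but 0.40 and 0.13 after their component genes were added. RGPD8 had 55 counts in the reoxygenated library alone, and the 7 RGPD rows together differed by −0.13 (−0.30 to 0.04). Joined or largely shared rows made up 197 of the genes compared, 11 of those higher and 16 of those lower.

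Of 27 NRF2 target genes compared, 7 were higher (background 5.27%) and 1 lower (background 7.24%), and 21 lay above 0, with a median of 0.64. Beside NQO1, they included SLC7A11, the cystine importer, at 2.16 (2.03 to 2.29), GCLM, the regulatory subunit of glutathione synthesis, at 1.89, TXNRD1, thioredoxin reductase, at 1.40 (1.34 to 1.46), FTL, the ferritin light chain, at 1.21 (1.16 to 1.27), and TALDO1, a transaldolase, at 1.05.

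SLC7A11 had 138, 123, 127, 59.1 and 264 CPM, and TXNRD1 736, 609, 561, 319 and 841. In both the 1% O2 day 10 library was lowest and the reoxygenated library highest. GCLM, with 94.5, 78.7, 89.3, 27.8 and 104 CPM, differed by 0.21 between the reoxygenated and the 20% O2 day 10 library, compared with 1.05 for SLC7A11 and 0.83 for NQO1. HMOX1, heme oxygenase, a target shared with BACH1, differed by only 0.22 (−0.25 to 0.70), with 82 and 73 counts. The 1 lower target was AKR1C3, an aldo-keto reductase, at −2.01 (−2.63 to −1.53); the list also holds AKR1C1 at −0.69.

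The regulators of NRF2 were split, with 1 of 9 higher (11.1%, background 5.27%) and 3 lower (33.3%, background 7.24%). BACH1, the repressor, had 66.9, 102, 76.9, 411 and 93.5 CPM and differed by −2.13 (−2.25 to −2.02), and the small MAF partners MAFK and MAFF by −1.74 and −1.43. MAFG differed by −0.48. NFE2L2 itself, with 110, 129, 117, 101 and 155 CPM, differed by 0.62 (0.50 to 0.74), KEAP1 by 0.57 and CUL3 by 0.62. SQSTM1, the autophagy adaptor p62, which binds KEAP1 and is also an NRF2 target, was higher at 1.30 (1.24 to 1.37). Of 23 antioxidant enzymes 1 was higher (4.35%, near the background of 5.27%), the glutathione transferase MGST1 at 1.83 (1.69 to 1.98). In that list 0 were lower (background 7.24%) and the median was 0.34. SOD2, the mitochondrial superoxide dismutase, differed by −0.65. Of 13 iron genes 1 was higher, FTL, or 7.69%, near the background of 5.27%, and the ferritin heavy chain FTH1 was at 0.58.

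The aryl hydrocarbon receptor, which shares ARNT with HIF, has a set of targets that includes NQO1, also listed with NRF2. Of 7 compared genes of this list, 1 was higher, NQO1 (14.3%, background 5.27%), and 1 lower, CYP1A1 (14.3%, background 7.24%). The list median was −0.27. CYP1A1, the classical target of the receptor, had 8.86, 9.64, 8.48, 99.0 and 32.7 CPM. It was 1.59 lower than after 10 days at 1% O2 and 1.92 above 20% O2 at day 10. CYP1B1, with 35.7, 39.6, 42.3, 120 and 208 CPM, was not lower but 0.79 higher (0.68 to 0.90), and its reoxygenated value was the highest of the 5.

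Genes of cell division formed the broadest block on the higher side. All 42 listed mitosis genes were above 0, 28 of them by 2-fold or more (background 5.27%), with a median of 1.09 and a range of 0.44 to 2.31. CENPE, a kinetochore motor, had 196, 204, 180, 46.0 and 229 CPM and differed by 2.31 (2.17 to 2.47). PLK1, the mitotic kinase whose promoter is shown above, had 156, 134, 142, 32.9 and 122 CPM and differed by 1.89 (1.71 to 2.08). CCNB1, cyclin B, differed by 1.72 (1.62 to 1.83) and KIF11, the spindle motor, by 1.70 (1.59 to 1.81). In each of these the 1% O2 day 10 library stood apart from the other 4. The proliferation marker MKI67 had 744, 980, 820, 406 and 782 CPM and missed 2-fold at 0.95, as did CDK1.

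DNA replication followed with smaller differences. All 48 genes were above 0, 12 of them by 2-fold or more (25%, background 5.27%), with a median of 0.79. CCNE2, which drives entry into S phase, differed by 1.78, the origin recognition subunit ORC1 by 1.62 (1.30 to 1.98), the chromatin assembly subunit CHAF1B by 1.61 and RRM2, a subunit of ribonucleotide reductase, by 1.45 (1.35 to 1.55). PCNA differed by 0.49 and MCM2 by 0.85. All 30 repair genes were above 0 as well, with a median of 0.75, and 9 were higher (30%, background 5.27%). They were led by NBN at 1.43, BRIP1 at 1.40, BARD1 at 1.39 and BRCA1 at 1.25, of which the last 3 act together in homologous recombination. Cyclin-dependent kinase inhibitors and p53 targets had few genes past 2-fold, with a median of 0.02. Of 24 compared, 1 was higher, CDKN2C (4.17%, background 5.27%), and 3 were lower (background 7.24%). Counts this small do not set the list apart from the background. Among the lower genes was CDKN1C (p57) at −2.22 (−3.14 to −1.57), whereas CDKN1A (p21) differed by −0.27. CCND1, cyclin D1, differed by 0.25. In the mitosis list the median difference between the reoxygenated and 20% O2 day 10 libraries was −0.05.

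Interferon-stimulated genes were higher in part, 14 of 34 compared (background 5.27%) with 2 lower (5.88%, near the background of 7.24%), and a median of 0.61. IFI44 had 17.0, 17.0, 13.7, 6.13 and 41.6 CPM and differed by 2.72 (2.37 to 3.17). IFIT1, whose product binds RNA that lacks cap methylation, had 52.3, 40.4, 32.6, 29.1 and 127 CPM and differed by 2.11 (1.93 to 2.31). IFIT3 and IFIT2, its neighbours on chromosome 10, differed by 1.91 and 1.83. In all of these the reoxygenated library was the highest of the 5, by a wide margin over both 20% O2 libraries.

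SAMD9L differed by 2.52 (2.04 to 3.18), OASL by 2.19 (1.86 to 2.58), GBP1, a guanylate-binding protein, by 1.67 and the RNA sensor IFIH1 by 1.16. DDX60, a helicase, had 16.1, 14.7, 15.9, 27.1 and 75.6 CPM, so that 1% O2 at day 10 was already above 20% O2 and reoxygenation higher still, at 1.47 (1.27 to 1.69). The pattern did not extend to the whole list. MX1 differed by 0.42 (−0.03 to 0.88), BST2 by −0.43, IFITM1 by −0.98 and the factor IRF7 by −1.26, with 75 and 23 counts; ISG20 was also lower. Outside the list APOBEC3G, a cytidine deaminase that restricts viruses, had 46, 40, 45, 17 and 104 counts and differed by 2.86 (2.26 to 3.84). Of 17 genes of antigen presentation 0 were higher (background 5.27%) and 1 was lower (5.88%, near the background of 7.24%), HLA-E at −1.42 (−1.52 to −1.32). Against 20% O2 at day 10, the interferon list had 12 genes higher in the reoxygenated library, where the background was 1.41% of all genes compared, and 0 lower, where it was 0.304%.

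**Figure D3:**
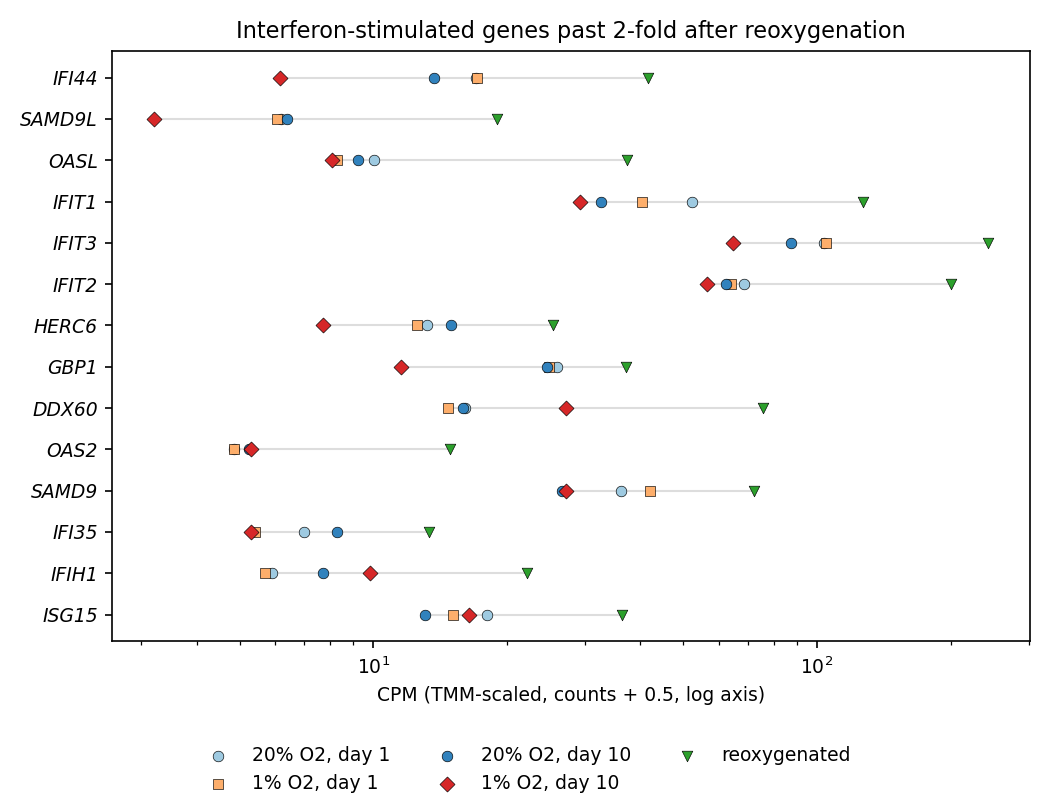
CPM in each of the 5 libraries for the 14 interferon-stimulated genes that were 2-fold or more higher after reoxygenation, on a log axis after 0.5 was added to each count. The reoxygenated marker (green triangle) is the rightmost in every row, and the 1% O2 day 10 marker (red diamond) is the leftmost in some rows, such as IFI44, and second from the right in others, such as DDX60.

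Cytokine and NF-kB genes were split, with 5 of 28 higher (background 5.27%) and 5 lower (background 7.24%) and a median of −0.05. CSF3 was joined on the higher side by CCL5, a chemokine with 10 and 57 counts that shares 15.8% of its sequence words with another gene, at 2.68 (1.92 to 4.04), CXCL2 at 1.47, CXCL1 at 1.34 and IL11 at 1.10. On the lower side were CCL20 at −2.83 (−3.69 to −2.25), PTGS2, the inducible cyclooxygenase, at −1.60, IL24 at −1.60, ICAM1 at −1.33 and IL1A at −1.06. PTGS2 had 14.3, 38.1, 23.7, 278 and 91.9 CPM, and so remained 1.94 above 20% O2 at day 10. PTGES, the prostaglandin E synthase that acts after it, had 39.8, 24.2, 81.2, 49.4 and 182 CPM and was higher at 1.87 (1.73 to 2.03). PTGS2 and PTGES thus stood in opposite directions. CXCL8 and IL6 differed by −0.34 and −0.53.

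Matrix and invasion genes were lower in 10 of 38 (26.3%, background 7.24%) and higher in 2 (5.26%, at the background of 5.27%), with a median of −0.55. After LOX came MMP10, stromelysin 2, at −3.28 on 94 and 6 counts, the integrin subunits ITGB3 at −2.12 and ITGA5 at −1.31, and FN1. FN1, fibronectin, had 245, 367, 213, 829 and 226 CPM and differed by −1.87 (−1.95 to −1.80). The higher pair were PLAU, urokinase, with 413, 423, 427, 174 and 510 CPM and a difference of 1.55 (1.47 to 1.63), and THBS1 at 1.27. PLAU and PLAT, both plasminogen activators, differed in opposite directions. MMP1, collagenase, at 3413 and 2341 CPM, differed by −0.54 and was at 1214 CPM in 20% O2 at day 10.

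Growth factor ligands, receptors and their feedback genes were lower in 6 of 20 (background 7.24%), among them PDGFRB at −1.53, TGFA at −1.36, AREG at −1.28 and IGF1R at −1.18, with 0 higher and EGFR at −0.94. Immediate early genes were lower in 8 of 25 (background 7.24%) and higher in 1 (4%, background 5.27%), with a median of −0.66. DUSP1, a phosphatase of MAP kinases, had 127, 129, 134, 537 and 192 CPM and differed by −1.48 (−1.57 to −1.40), and ATF3 and DUSP5 by −1.42 and −1.39. The exception was FOSL1, the AP-1 subunit Fra-1, which had 252, 213, 210, 67.0 and 177 CPM and differed by 1.40 (1.27 to 1.54). MYC differed by −0.11. Of 19 genes of the BMP and TGF-beta routes, 5 were lower (26.3%, background 7.24%), including the BMP antagonist NOG at −2.74 (−3.02 to −2.51), BMP4 at −1.70 and INHBA at −1.56. In that list 2 were higher, ID3 and ID1 (10.5%, background 5.27%). Among 18 genes of epithelial and mesenchymal identity only KRT81 was higher (5.56%, near the background of 5.27%) and S100A4 and SNAI1 lower (11.1%, background 7.24%). The list median was 0.06. KRT81 shares 45.8% of its sequence words with another gene.

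Clock genes were lower in 7 of 17 (41.2%, background 7.24%) and higher in 0, with a median of −0.71. They were led by the repressors BHLHE40 at −2.60 (−2.75 to −2.45) and NR1D1 at −1.74 (−2.06 to −1.46) and by RORA at −1.82. BHLHE40, BHLHE41 and RORA are also in the HIF target list, so the lists are not separate. The hour of harvest is not given in the sources used here. Histone and DNA demethylases, which need oxygen to work, were lower in 4 of 20 (20%, background 7.24%) and higher in 0 (median −0.16), namely the histone enzymes KDM7A at −1.34, KDM3A at −1.24, KDM6B at −1.12 and KDM4B at −1.08. The first, second and last of these 4 were listed as HIF targets too.

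Stress and metabolic lists had smaller or mixed differences. Of 21 genes of the integrated stress response, 2 were higher and 2 lower, 9.52% each way and near the background of 5.27% and 7.24%. DDIT3 (CHOP), with 11.0, 11.3, 9.62, 9.77 and 24.6 CPM, was higher at 1.32 (0.98 to 1.69) and ATF5 at 1.54, while CHAC1 was at −1.33, VLDLR at −1.25 and ATF4 at −0.27. Endoplasmic reticulum chaperones were within 2-fold except CRELD2 at 1.23 on 39 and 72 counts; HSPA5 (BiP) had 706, 732, 657, 837 and 1271 CPM, highest after reoxygenation. Cholesterol and fatty acid synthesis was lower in 1 of 31 genes (3.23%, background 7.24%), MSMO1 at −1.46, with a list median of −0.04. The lipid droplet list had 3 of 11 lower (27.3%, background 7.24%), including HILPDA at −2.27, and FABP5 higher at 1.14 (9.09%, background 5.27%). In the glycogen list 2 of 13 were lower (15.4%, background 7.24%). These were PPP1R3B at −2.31 and PPP1R3C at −1.74, both subunits that direct protein phosphatase to glycogen.

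MT1X, a metallothionein that binds zinc and copper, had 11.8, 17.9, 14.7, 148 and 14.6 CPM and differed by −3.32 (−3.62 to −3.07). Of 7 metallothionein and zinc genes compared, 2 were lower (28.6%, background 7.24%), MT1X and its relative MT1A, and 0 higher. Another relative, MT2A, at 293 and 182 CPM, differed by −0.68 and MT1E by 0.23. Not all members of this family of similar sequence thus shared a size of difference. Of 19 mitophagy and autophagy genes 4 were lower (21.1%, background 7.24%) and 1 higher (5.26%, at the background of 5.27%), with a median of −0.39. TFEB, a master regulator of lysosomes, was at −2.20 on 98 and 15 counts and GABARAPL1 at −1.44, against SQSTM1 on the higher side.

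Nuclear genes of the respiratory chain differed little. Of 77, 64 were above 0, 2 were higher (2.60%, background 5.27%) and 0 lower (background 7.24%), with a median of 0.27. CYCS, cytochrome c, had 484, 445, 447, 189 and 381 CPM and was just past 2-fold at 1.01 (0.93 to 1.09), and ATP5G1, a subunit of ATP synthase, was at 1.14. With library totals, DESeq2 size factors or the authors' normalized table in place of TMM, only 1 of the 77 passed 2-fold. Ribosomal protein genes went slightly the other way. None of 79 passed 2-fold, 52 lay below 0, and the median was −0.13, with RPL13A at −0.73, where 21.8% of sequence words are shared with other genes. Genes of ribosome assembly and MYC function had a median of 0.57, with 3 of 30 higher (10%, background 5.27%) and 1 lower, MXI1 (3.33%, background 7.24%). The higher genes were UTP20 at 1.91 (1.76 to 2.08), RRP9 at 1.35 and NOP58 at 1.13. ODC1, which starts polyamine synthesis, had 419, 344, 414, 115 and 230 CPM and was 0.99 higher, still below the other 3.

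**Figure D4:**
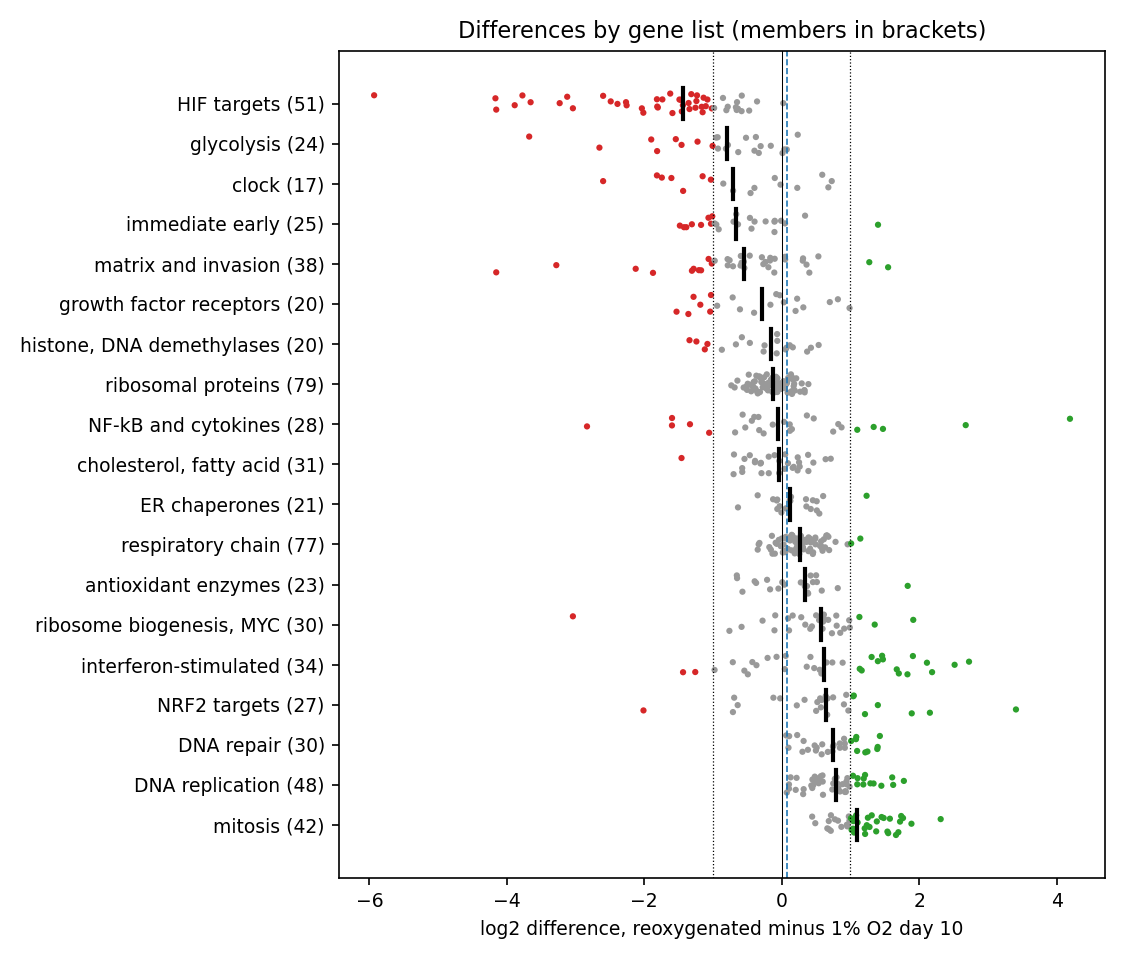
Each point is the log2 difference of 1 gene, reoxygenated minus 1% O2 day 10, for 19 lists with the number of compared members in brackets; black bars are list medians, the dashed line is the median of all genes and dotted lines are 2-fold. HIF targets (51) lie almost wholly to the left of 0, and mitosis (42), replication (48) and repair (30) wholly to the right.

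Of 217 long noncoding RNAs compared, 39 were lower (18.0%, background 7.24%) and 9 higher (4.15%, background 5.27%), with a median of −0.22. Of 11064 protein-coding genes, 588 were higher (5.31%) and 769 lower (6.95%). MIR210HG, the host transcript of a HIF-induced microRNA, had 7, 49, 13, 101 and 4 counts and differed by −3.83. MALAT1 and NEAT1, abundant nuclear RNAs, differed by −0.30 and −0.41 and stayed 0.90 and 1.55 above 20% O2 at day 10. The share of counts on ribosomal RNA rows was 2.17% after 10 days at 1% O2, 1.78% after reoxygenation and between 1.51% and 1.58% in the other libraries; the part of this in any result was not tested. Median differences by chromosome lay between −0.13 (chromosome 19) and 0.18 (chromosome 4).

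The acute comparison of 1% with 20% O2 at day 1 shares no library with reoxygenation. Of the same 11498 genes, 101 were higher after 1 day at 1% O2 (0.878%) and 15 lower (0.13%). Of the 101, 81 were lower after reoxygenation, or 80.2% (background 7.24%). These 81 are 9.74% of the 832 genes lower after reoxygenation (background 0.878%). As only 101 genes were higher at day 1, most of the 832 could not have been among them. Genes lower after reoxygenation but within 2-fold at day 1 include SLC5A3 at 0.77, PLAT at 0.53 and MT1X at 0.59. TNFSF10, at 37 against 18 counts, was close to 2-fold at day 1, on too few counts to place it on either side. Across genes, which are not independent replicates and differ in depth, Pearson's r between the log2 differences was −0.385 and Spearman's rho −0.329.

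Among the 20 genes higher in acute hypoxia that were not lower after reoxygenation, PDK1, a brake on pyruvate entry into mitochondria, had 26.1, 54.9, 35.5, 46.3 and 26.3 CPM and AK4, a mitochondrial adenylate kinase, 115, 239, 148, 171 and 109. In both the day 1 value at 1% O2 was the highest of the 5. HNRNPH2 was the only gene higher in both, with 95, 449, 292, 219 and 411 counts, and some of its sequence words are shared with another gene. Of the 15 genes lower in acute hypoxia, 3 were higher after reoxygenation, HIF1A, FDXACB1 and RARRES3, which is 20% of the 15 (background 5.27%), and as many were lower, C9orf84, FMOD and STEAP4 (background 7.24%). HIF1A was at −1.05 in the acute comparison. NQO1 was at −0.51 there, within 2-fold.

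**Figure D5:**
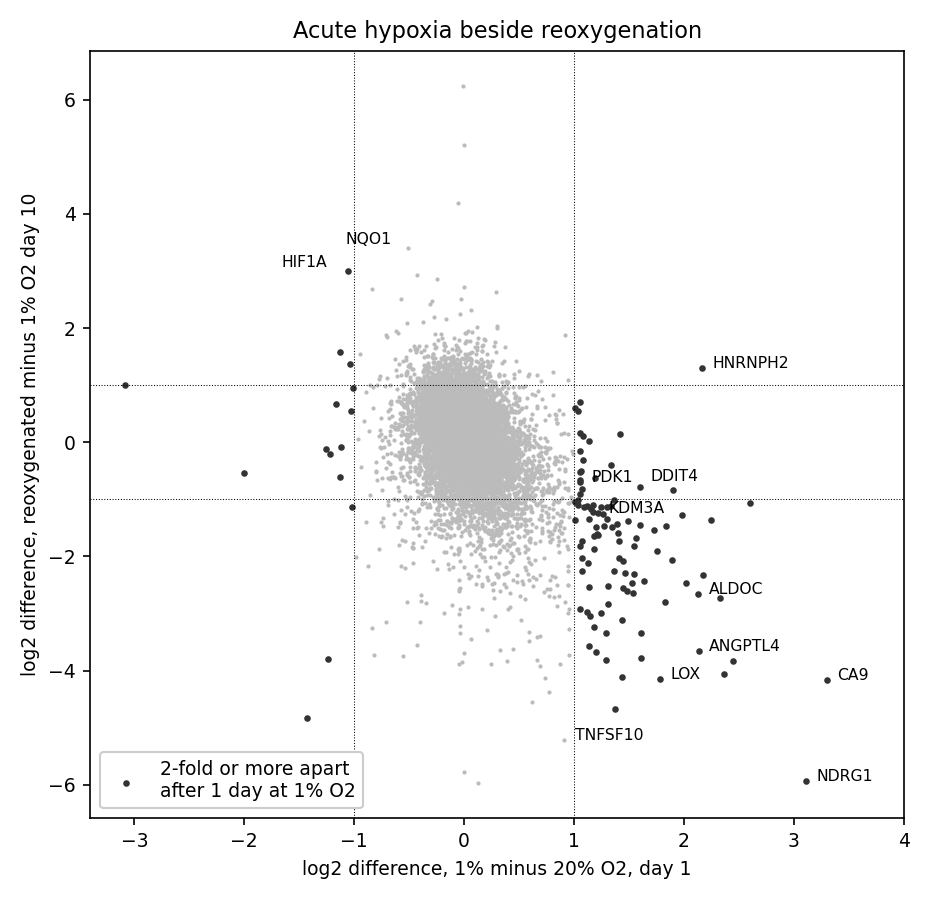
Each point is 1 of the 11498 genes, with the log2 difference of 1% minus 20% O2 at day 1 on the horizontal axis and of reoxygenated minus 1% O2 day 10 on the vertical axis; these use 4 different libraries. Dark points are the 116 genes 2-fold or more apart at day 1, and 81 of them lie in the lower right corner, with NDRG1 and CA9 farthest out.

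The remaining comparisons are set beside the one described as values only. Those of 1% O2 or reoxygenated against 20% O2 at day 10 share a library with it. That between the 20% O2 libraries does not. Over the same genes, 1% minus 20% O2 at day 10 gave 1139 genes higher (9.91%) and 837 lower (7.28%). Reoxygenated minus 20% O2 day 10 gave 162 higher (1.41%) and 35 lower (0.304%), and the 20% O2 libraries of day 10 and day 1 differed by as many, 170 higher (1.48%) and 33 lower (0.287%). For HIF1A the 3 log2 differences, reoxygenated minus 1%, 1% minus 20% at day 10 and reoxygenated minus 20% at day 10, were 2.99, −2.57 and 0.42. For NQO1 they were 3.41, −2.58 and 0.83, and for NDRG1 −5.93, 5.55 and −0.38.

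A few genes ended on the far side of 20% O2 at day 10. ALPP, placental alkaline phosphatase, had 64.7, 81.2, 96.1, 362 and 28.7 CPM, a difference of −3.65 (−3.86 to −3.46) from 1% O2 and of −1.74 from 20% O2, and the reoxygenated value was the lowest of the 5. EDN1, endothelin 1, had 68.2, 76.2, 60.8, 95.1 and 16.8 CPM, with −2.48 and −1.84. CST1 was likewise 3.13 below 20% O2 at day 10, where it had 126 counts. At 20% O2 day 1, however, it had only 16 counts (1.54 CPM), nearer to the 8 counts (1.01 CPM) after reoxygenation. For SLC7A11, PTGES, DDIT3 and the interferon-stimulated genes shown above, the reoxygenated level was the highest of the 5 libraries. Some of them, such as DDIT3 and DDX60, had not been below 20% O2 at day 10 in the 1% O2 day 10 library.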

How the data were processed

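RNA-seq values of 5 libraries were used. The submitters' processing notes name the hg38 build, edgeR, RSEM 1.2.15 and Bowtie2 2.1.0. The authors deposited expected counts per gene symbol, not normalized. They also deposited a normalized signal in TMM-scaled CPM, from which only the filter of 5 and 1 alternative were taken. Neither the annotation nor the strand setting of the counting is given in the sources used here. Expected counts were rounded. TMM factors were computed with edgeR 4.0.16 over 13940 genes with at least 1 CPM in any library, and log2 CPM with a prior count of 2. The contrast was tested on simulated data. Genes named were the 12 highest and 12 lowest whose interval excludes 0 (without uncertain rows, uncharacterized symbols, small and antisense RNAs and pseudogenes, so without BCYRN1, a small RNA), the 5 highest and 5 lowest in CPM difference among genes past 2-fold, up to 6 per list, and the oxygen-sensing and NRF2 regulator panel; others were chosen after their values were seen. Uncertain rows have joined names or share 50% or more of 50-base transcript words with another gene. Members, the 37 gene lists and the named-gene rule were chosen with earlier results of these data known. Symbols of 28 rows were dates, 20 of them compared. Coordinates and promoters are from RefSeq (GRCh38.p14); 11415 symbols matched its gene table. No molecular identifiers are described, so intervals cover counting error only. Alternatives were library totals, DESeq2 1.42.0 size factors, the authors' normalized table, the prior count, the filter, the whole interval past 2-fold, and leaving out uncertain rows. Some items are not reported here.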

Additional observations from a re-analysis of the deposited data

How the results depend on the processing

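Under other scalings the counts of 606 higher and 832 lower genes became 515 and 913 (library totals), 558 and 879 (DESeq2 size factors) and 449 and 781 (the authors' normalized table as log2(value + 1)). Higher genes were 42.1% of those past 2-fold with TMM and 36.1% with library totals. The filter counted for more. With 1 TMM CPM 1486 genes were lower, with 20 TMM CPM 421, and with 1 count 974 were higher and 2133 lower. With 5 TMM CPM required in both libraries, a setting added after seeing the data, 484 were lower and 513 higher, so lower genes no longer outnumbered higher ones. In that setting 30 HIF targets and 7 glycolysis genes were lower, and 13 interferon-stimulated genes higher. Where the whole counting interval had to lie past 2-fold, 248 were higher and 439 lower. The 81 genes higher in acute hypoxia and lower after reoxygenation became 47 with the authors' table, 156 with 1 TMM CPM, 40 with 20 TMM CPM, 192 with 1 count and 36 with 5 TMM CPM in both. Of 666 recomputed list counts 628 were within 1.5 times, and of 1216 recomputed values of named genes 29 left their counting interval and 0 of those past 2-fold changed sign. Depth of the reoxygenated library, the shallowest, limits genes of few counts. No paired analysis was possible because each condition has 1 library, and no library could be left out for the same reason.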
